A study of Mus musculus with 3 samples.

Results

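The 10 genes described here encode 2 thrombospondins (Thbs1, Thbs2), 2 CCN proteins (Ccn1 and Ccn2, earlier Cyr61 and Ctgf), the 3 TGF-beta ligands (Tgfb1, Tgfb2, Tgfb3), both signalling receptors (Tgfbr1, Tgfbr2) and Ltbp2, a member of the latent TGF-beta binding protein family. They were found by gene symbol in the platform's annotation, with 1 probe set each, and are 10 of 19938 genes measured. They were chosen by name with values of these same samples already known, several of them because they differed between the high and medium lines, so their values are a description and carry no test.

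Expression was measured on an Affymetrix array in CT26, a mouse colon carcinoma line. All 3 groups had been transfected with a vector that confers puromycin resistance and GFP, then selected with the drug, sorted by their GFP and taken through monoclonal selection by serial dilution. The miR-Ctrl cells (Ctrl) carried a control microRNA. The miR-17~92Med (Med) and miR-17~92Hi (Hi) cells carried the wild-type miR-17~92 cluster and are labelled as expressing it at medium and high levels. Each group has 1 column of values although 3 subclones per group are described, and the sources used here do not say whether a column is 1 clone, a pool or a mean. No value below therefore has a measured error, "higher" and "lower" describe these columns alone, and a difference between clones and an effect of the cluster cannot be told apart.

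TGF-beta is secreted in a latent complex that has to be opened before it can bind its receptors. The active ligand brings the type II receptor Tgfbr2 together with the type I receptor Tgfbr1, which phosphorylates SMAD proteins that then act on genes in the nucleus. Thrombospondin 1 is a secreted glycoprotein known to inhibit blood vessel growth and to activate latent TGF-beta, and Ccn1 and Ccn2 are secreted matrix-associated proteins induced by TGF-beta and by the YAP-TEAD factors. Thbs1, Ccn2 and Tgfbr2 are reported targets of microRNAs of the miR-17~92 cluster.

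The mature microRNAs that define the treated groups are shown first, because the groups are labelled by their level. They come from RefSeq (GRCm38.p6), with the seed (bases 2 to 8, the part that pairs with target mRNAs) in capitals.
miR-17-5p: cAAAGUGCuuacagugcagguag
miR-20a-5p: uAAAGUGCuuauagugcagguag
miR-18a-5p: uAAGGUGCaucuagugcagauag
miR-19a-3p: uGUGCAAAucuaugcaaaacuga
miR-19b-3p: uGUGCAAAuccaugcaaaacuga
miR-92a-3p: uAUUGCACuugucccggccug
These 6 microRNAs have 4 distinct seeds, since miR-17-5p and miR-20a-5p share one and miR-19a-3p and miR-19b-3p share another. Target sites in the 10 genes were not searched here.

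The Ctrl column stood apart from the other columns. Across the 35556 probe sets its correlation was r = 0.787 with Med and r = 0.795 with Hi, against r = 0.992 between Med and Hi (across probe sets, which are not replicates). On the log2 scale the mitochondrial mRNA COX2 read 6.00 in Ctrl against 13.40 in Med and 13.31 in Hi. Differences from Ctrl are therefore given after the comparison of Hi with Med, which does not use it. Many values were identical between columns to every deposited digit, among them 43.7% of probe sets in Med and Hi, and 10.5% of the genes past the expression filter in all 3 columns. The filter kept the 9969 genes with a mean level of at least 7.13, the median over all genes. As a gauge of background, 1194 olfactory and vomeronasal receptor genes had 95th percentiles of 6.87, 6.18 and 6.20 in Ctrl, Med and Hi, and each of the 10 genes lay above these in every column.

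Epithelial markers were present only in part. In each column 4 of 7 epithelial markers were at or below the receptor percentile. Cdx2 (6.79, 5.77 and 5.89 in Ctrl, Med and Hi) and Vil1 (6.34, 5.93 and 5.93) were among them throughout. Of 7 epithelial markers 2 passed the filter, the keratin genes Krt18, at 7.97, 11.41 and 12.28 in Ctrl, Med and Hi, and Krt8, which went the other way against Ctrl, at 8.92, 7.28 and 7.32, while the adhesion gene Epcam was at 6.15, 5.14 and 5.14, below the receptor percentile. Of 8 fibroblast and mesenchymal markers 5 passed, of which 2 were higher and 3 lower than Ctrl in both miR-17~92 columns. The filament gene Vim was at 11.94, 13.89 and 13.63 and the growth factor receptor gene Pdgfra at 7.26, 9.79 and 10.27, while the collagen genes Col1a1 (8.76, 7.44 and 7.57), Col1a2 (8.60, 7.29 and 7.37) and Col3a1 (7.80, 6.98 and 6.99) were lower. The proteoglycan gene Lum had the lowest levels of this list, at 4.28, 3.55 and 3.67. Of 5 endothelial markers 1 passed, Vwf (7.89, 6.80 and 6.89), and the lowest, Tek, was at 5.92, 5.38 and 5.38. Of 6 leukocyte markers 1 passed, Cd68 (7.18, 9.12 and 7.67), while the macrophage gene Adgre1 was at 5.12, 4.63 and 4.70, below the receptor percentile in each column. The lysosomal gene Cd68 was thus lower in Hi than in Med, the opposite order to Thbs1, and its part in the results below was not tested. In such bulk RNA, fewer expressing cells and less RNA per cell cannot be told apart.

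**Figure D1:**
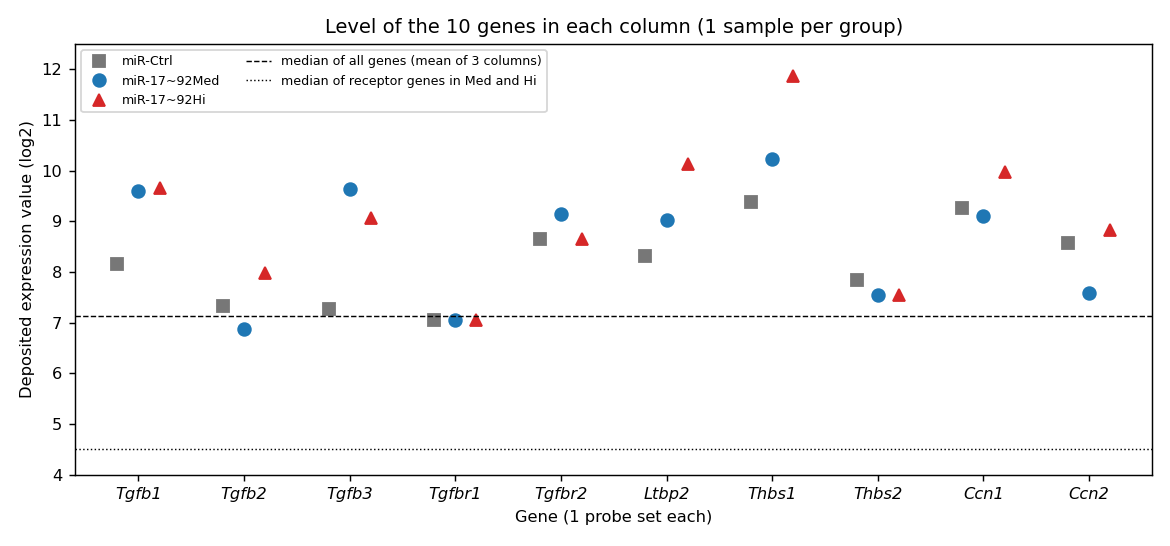
Deposited log2 level (vertical axis) of each of the 10 genes in miR-Ctrl (grey square), miR-17~92Med (blue circle) and miR-17~92Hi (red triangle), 1 value per column with no error; the dashed line is the median of all genes (7.13) and the dotted line the median of receptor genes in Med and Hi (4.51). Thbs1 runs from 9.38 in Ctrl to 11.87 in Hi, and Tgfbr1 sits at 7.05 in all columns.

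Hi against Med asks how the genes differ between the 2 labelled levels of the cluster. Thbs1, Ccn2, Ltbp2 and Tgfb2 were at least 2-fold higher in Hi, Ccn1 was higher by less, Tgfb1 was nearly level, and Tgfb3 and Tgfbr2 were lower. In number, 4 of the 10 were higher by 2-fold or more and 0 lower. The median difference was 0.47 over all 10, and over all 19938 genes it was 0.00, with 0.406% of genes at least 2-fold higher and 0.512% lower. Past the filter, which Tgfbr1 missed, the median of 9 was 0.88, and 68 of 9969 genes (0.682%) were at least 2-fold higher. These counts restate how the genes were chosen.

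Among the thrombospondins, Thbs1 had a level of 9.38 in Ctrl, of 10.24 in Med and of 11.87 in Hi. As deposited it was thus lowest in Ctrl and highest in Hi, and Med lay below Ctrl with quantile (-0.24) and cyclic loess normalization (-0.52). Hi exceeded Med by 1.63 on the log2 scale (3.09-fold), the 26th highest difference of the genes past the filter. Thbs2, the second thrombospondin of the same trimeric subgroup, was at 7.84 in Ctrl and at the same value, 7.55, in Med and Hi. The other family members were nearly level between Med and Hi, Thbs3 being at 7.70, 7.83 and 7.83, Thbs4 at 6.72, 5.82 and 5.83, and Comp at 7.61, 6.31 and 6.33. Thbs4 and Comp did not pass the filter. In Med and Hi, Thbs4 lay below the receptor percentile and Comp just above it, so their likeness there is near background. Array levels of different genes do not compare as amounts of RNA.

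Hi exceeded Med for both CCN genes. Ccn2, a matrix-associated protein known as connective tissue growth factor, had levels of 8.57 (Ctrl), 7.58 (Med) and 8.82 (Hi). Med was the low column for Ccn2, and Hi was close to Ctrl. The difference of Hi from Med was 1.23 (2.35-fold), the 41st highest. Ccn1 had levels of 9.26, 9.10 and 9.98 in the same order, a difference of 0.88 between Hi and Med (1.84-fold, the 81st highest). Ctrl and Med were close together for Ccn1 and Hi was above both. Of the other 4 CCN genes only Ccn5 passed the filter, at 8.30, 7.61 and 7.90, also with Med lowest and with a difference of 0.29 between Hi and Med. Ccn3, Ccn4 and Ccn6 were between 5.34 and 6.07 in both miR-17~92 columns, below the receptor percentile.

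The 3 ligands went different ways between Hi and Med. Tgfb1 had levels of 8.15 (Ctrl), 9.60 (Med) and 9.66 (Hi), so that both miR-17~92 columns were above Ctrl and differed from each other by 0.06. Tgfb2 was at 7.34, 6.88 and 7.99, with Med lowest as for Ccn2, and Hi exceeded Med by 1.11 (2.15-fold, the 55th highest). Its value in Med lay below the filter level of 7.13, and it passed the filter through Ctrl and Hi. Tgfb3 was at 7.27, 9.64 and 9.07, and Hi was below Med by 0.57 on the log2 scale (1.48-fold), a larger difference in absolute size than in 94.4% of the genes past the filter. Tgfb1 and Tgfb3 thus had their lowest value in Ctrl, and Tgfb2 had it in Med.

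The receptors showed no higher value in Hi. Tgfbr2, which binds the ligand first, had levels of 8.66 (Ctrl), 9.15 (Med) and 8.66 (Hi), where the values of Ctrl and Hi were identical to every deposited digit. Hi was below Med by 0.50 on the log2 scale (1.41-fold). Identity of Ctrl and Hi with a different Med was seen in 167 genes past the filter (1.7%). Tgfbr1, the kinase that phosphorylates the SMADs, was at 7.05 in all 3 columns, an exact identity that 1046 genes past the filter also had. Such an identity gives no measured difference, and how it arose was not tested.

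Ltbp2, an elastic fibre protein of the latent TGF-beta binding protein family, had levels of 8.32 (Ctrl), 9.03 (Med) and 10.14 (Hi). As deposited it was ordered Ctrl, Med, Hi like Thbs1, although Med differed from Ctrl by -0.09 with cyclic loess normalization, and Hi exceeded Med by 1.11 (2.16-fold, the 54th highest). The related genes did not show that order throughout. Ltbp1 was at 8.34, 11.10 and 10.78, Ltbp3 at 9.36, 9.88 and 10.40, and Ltbp4 at 8.38, 8.93 and 8.79, so that Ltbp3 alone of these also had its highest value in Hi. These genes, like Thbs3, Thbs4, Comp, Ccn3, Ccn4 and Ccn6, are named as relatives of the 10 genes after their values were seen.

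**Figure D2:**
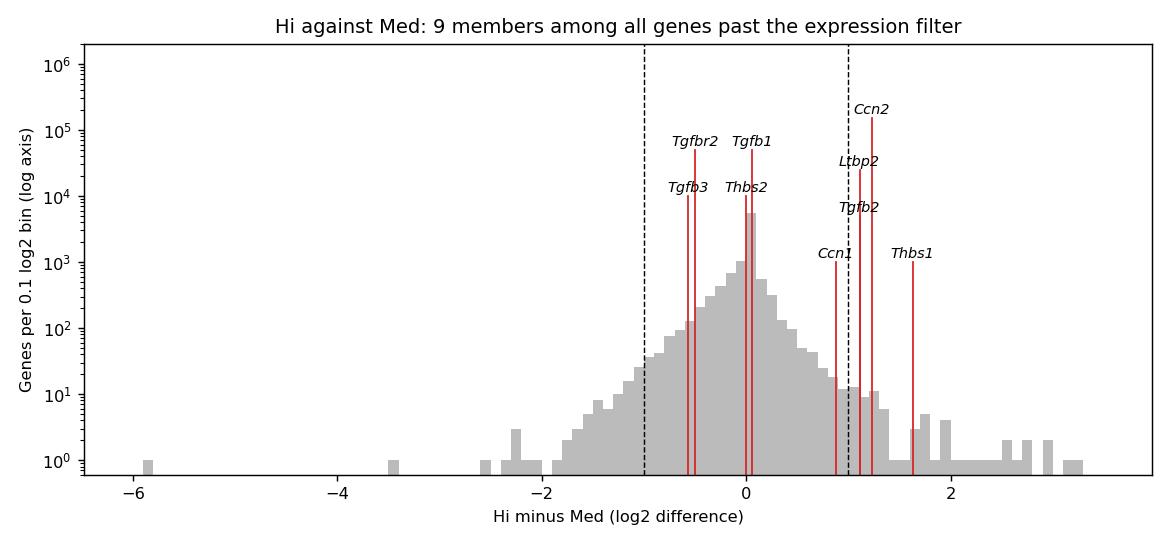
Histogram of the log2 difference Hi minus Med (horizontal axis) over the 9969 genes past the expression filter, in bins of 0.1 with the number of genes on a log axis; red lines mark the 9 members past the filter and dashed lines a 2-fold difference. Thbs1 (1.63), Ccn2 (1.23), Tgfb2 and Ltbp2 (1.11 each) lie to the right of the 2-fold line, where 68 genes lie in all.

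The size of these differences can be set against genes at background. Over the receptor genes the difference of Hi from Med had an SD over genes of 0.09 and a largest absolute value of 0.66, and 0 of 1194 were 2-fold apart. The differences of Thbs1, Ccn2, Ltbp2, Tgfb2 and Ccn1 exceeded that largest value, and those of Tgfb3 and Tgfbr2 did not. The receptor genes lie at lower levels than the 10 genes, and their spread over genes does not measure the spread between cultures or clones. Of the receptor genes 69.2% were identical in Hi and Med, against 45.9% of all genes past the filter, which narrows that spread. Several of the 10 genes were chosen for this same difference, so its size here restates the choice and is no support. With the 3 columns quantile-normalized, the difference of Tgfb2 was 0.96, under 2-fold. For the 8 genes not identical in Hi and Med, the sign of the difference was the same as deposited under 5 other settings. These were 4 scalings and the highest probe set per gene. With 1 probe set for each of these genes, the last returned the deposited values by design. The scalings that centre the columns each shifted all genes by the same amount. The ranges were 1.57 to 1.69 for Thbs1, 1.09 to 1.29 for Ccn2, 1.03 to 1.17 for Ltbp2 and 0.96 to 1.16 for Tgfb2. They were 0.83 to 0.94 for Ccn1, 0.05 to 0.11 for Tgfb1, -0.57 to -0.47 for Tgfb3 and -0.50 to -0.40 for Tgfbr2.

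Against Ctrl, Tgfb1 and Tgfb3 were at least 2-fold higher in both miR-17~92 columns, and Thbs1 and Ltbp2 in Hi. In Hi, Thbs1 was higher than Ctrl by 2.49 (5.62-fold), Ltbp2 by 1.82 (3.54-fold), Tgfb3 by 1.80 (3.49-fold) and Tgfb1 by 1.51 (2.84-fold), while 0 of the 10 genes were 2-fold lower. In Med, Tgfb3 was higher by 2.37 (5.17-fold) and Tgfb1 by 1.45 (2.73-fold), with 0 lower. That split turns with the scaling: with quantile, cyclic loess or centring on genes past the filter, 1 member past the filter (Tgfb3) was 2-fold higher in Med and 2 were lower, Ccn2 with Ccn1 or, in the last setting, with Tgfb2. The count of 4 of 10 in Hi stands beside 17.5% of all 19938 genes at least 2-fold higher and 15.4% lower (33.5% higher past the filter), and that of 2 of 10 in Med beside 18.3% higher and 16.3% lower (34.9% higher past the filter). The median difference of the 10 genes was 0.68 in Hi and 0.25 in Med, where that of all genes was -0.19 and -0.20. Past the filter it was 0.72 in Hi and 0.50 in Med for the 9 members, beside 0.39 and 0.42 for all genes. Background also differed from Ctrl. Of the 1194 receptor genes, 1003 were lower in Hi (median -0.38) and 1009 in Med (median -0.39). At 2-fold, 77 were lower in Hi and 82 in Med, with 0 higher in either. The Ctrl level of Tgfb3, 7.27, lay near the receptor 95th percentile of that column, 6.87. Both comparisons use the same Ctrl column, which stands apart, so their likeness is not independent evidence.

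The remaining genes lay within 2-fold of Ctrl. Ccn2 differed by 0.25 in Hi and by -0.98 in Med (1.98-fold lower), just short of 2-fold. Ccn1 differed by 0.72 and -0.16, Tgfb2 by 0.65 and -0.46, Thbs2 by -0.29 in both, and Tgfbr2 by 0.00 and 0.50. Thus Ccn1, Ccn2 and Tgfb2 were above Ctrl in Hi and below it in Med, and for Ccn1 and Ccn2 this placing turns with the scaling.

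The differences from Ctrl moved with the scaling far more than those between Hi and Med. Over the deposited values and 5 other settings, the difference of Thbs1 from Ctrl ranged from 1.14 to 2.78 in Hi and from -0.52 to 1.16 in Med, so that its direction in Med is not settled. Ccn2 ranged from -0.42 to 0.54 in Hi and from -1.58 to -0.69 in Med, where it was below Ctrl throughout. Ccn1 ranged from -0.28 to 1.01 in Hi and from -1.11 to 0.13 in Med. Tgfb3 was above Ctrl throughout, by 1.26 to 2.09 in Hi and 1.77 to 2.67 in Med, as was Tgfb1, by 0.75 to 1.79 and 0.67 to 1.74, which fell under 2-fold in some settings in both columns. Ltbp2 kept a difference of at least 1.05 in Hi and ranged from -0.09 to 1.01 in Med. Tgfb2 was above Ctrl in Hi (0.11 to 0.96) and below it in Med (-1.06 to -0.14) throughout. Of all genes past the filter that were 2-fold apart from Ctrl in Hi, 79.9% were higher as deposited, 90.7% with columns centred on all probe sets, 57.7% centred on genes past the filter, 57.9% with quantile normalization and 68.7% with cyclic loess normalization. For Med these shares were 80.0%, 89.9%, 56.7%, 57.0% and 68.2%.

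**Figure D3:**
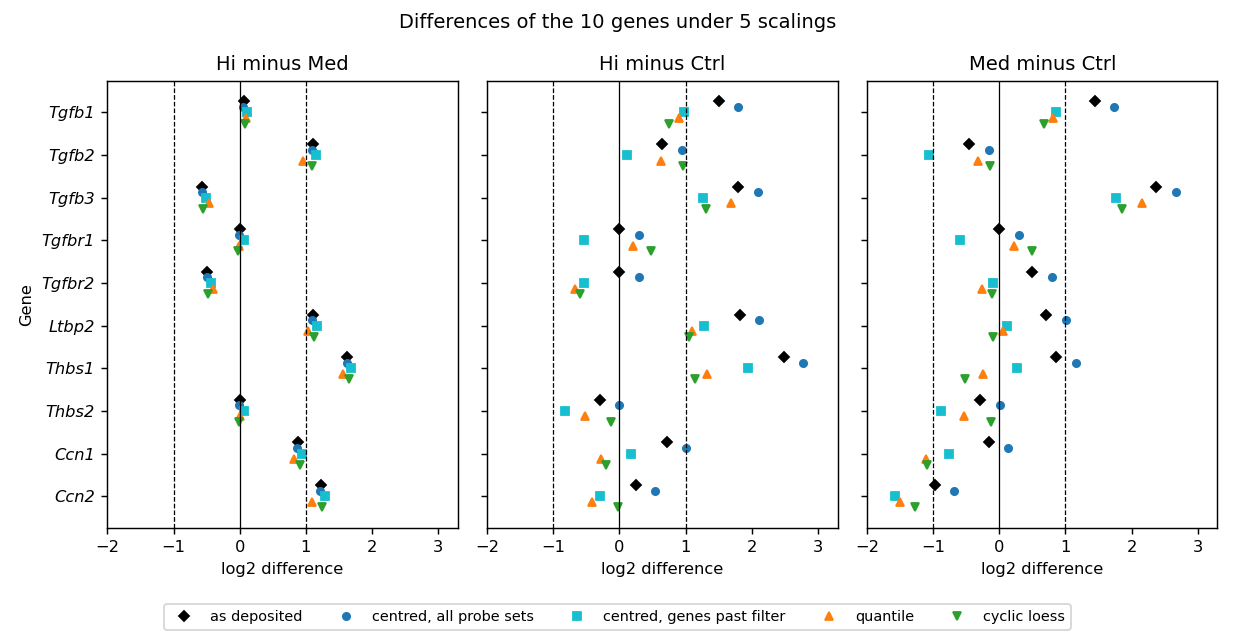
Log2 difference (horizontal axis) of each of the 10 genes for Hi minus Med, Hi minus Ctrl and Med minus Ctrl as deposited (black diamonds) and under 4 other scalings of the columns; dashed lines mark a 2-fold difference and no point has an error bar. The points of a gene lie close together for Hi minus Med and spread widely against Ctrl, for Thbs1 in Med from -0.52 to 1.16.

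The wider TGF-beta and YAP-TEAD pathway was described with 9 lists holding 155 genes other than the 10, of which 149 had a probe set of their own and 105 passed the filter. Between Hi and Med, 1 of these 105 was at least 2-fold higher and 1 lower (1.90%, beside 1.54% of all genes past the filter). By any amount 36 were higher, 35 lower and 34 identical, and the median was 0.00. Of all 9969 genes past the filter, 2277 were higher in Hi than in Med, 3118 lower and 4574 identical (45.9%). The direction counts of the single lists below stand beside that lean to lower values. The gene that was higher was Itgb5, the integrin beta 5 chain that pairs with alpha V, with levels of 8.12, 10.27 and 11.41 in Ctrl, Med and Hi (difference 1.14). The lower one was Nt5e, the surface nucleotidase CD73, at 7.71, 11.07 and 9.83 (-1.23).

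Upstream of the receptors, 13 genes of the latency and activation list passed the filter. Of these, 3 were higher in Hi than in Med and 8 lower, and the list's median was -0.15. All genes past the filter also had more lower (3118) than higher (2277), so this lean alone is no result about the list. The list's 1 gene 2-fold apart was Itgb5. Among thrombospondin relatives and receptors 6 passed and none was 2-fold apart. The endocytic receptor Lrp1, which takes up thrombospondin 1, was at 9.06, 11.78 and 10.86 (-0.92), and the heparan sulfate proteoglycan Sdc4 at 9.05, 11.11 and 11.48 (0.37). Of 9 receptor and co-receptor genes past the filter, 5 were identical in Hi and Med, beside 45.9% of all genes past the filter. None was 2-fold apart, beside 1.54% of all genes past the filter. The co-receptor Eng was at 8.05, 6.66 and 7.33 (0.67), with Med lowest, and the BMP receptor Bmpr2 at 8.63, 10.40 and 10.11 (-0.29). Of 7 ligands and inhibitors of the activin and BMP branch past the filter none was 2-fold apart, Bmp7 being at 7.68, 9.24 and 8.30 (-0.93) and Bmp4 at 7.66, 7.25 and 7.85 (0.60).

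Downstream, none of the SMAD genes or TGF-beta target genes past the filter was 2-fold apart between Hi and Med, beside 1.54% of all genes. At that share short lists such as these would mostly hold none, so this is no result about the pathway. Of 7 SMAD genes past the filter 4 were higher in Hi than in Med, 1 lower and 2 identical (median 0.10). Smad3, a receptor-activated SMAD, was at 9.62, 9.72 and 10.19 (0.47), and Smad2, the second one of the TGF-beta branch, at 7.30, 8.50 and 8.72 (0.21). Of 14 SMAD regulators past the filter 3 were higher, 5 lower and 6 identical, with Pmepa1, an inhibitor of the pathway, at 8.40, 7.57 and 7.30 (-0.27) and the SMAD anchor Zfyve9 at 6.69, 8.29 and 8.05 (-0.24).

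Of 23 TGF-beta target genes past the filter, the members among the 10 left out, 10 were higher in Hi than in Med, 6 lower and 7 identical (median 0.00), none by 2-fold. The largest differences were both lower in Hi: the chromatin protein gene Hmga2 was at 9.38, 11.92 and 10.99 (-0.94), and the helix-loop-helix inhibitor Id2 at 9.19, 8.84 and 7.94 (-0.90). Of 25 genes of the YAP-TEAD list past the filter, 7 were higher, 10 lower and 8 identical (median 0.00), and Nt5e was the 1 gene 2-fold apart. Genes 2-fold apart from Ctrl were far more frequent in these lists, 36 higher and 9 lower of 105 in Hi (42.9%, beside 41.8% of all genes past the filter) and 36 higher and 8 lower in Med (41.9%, beside 43.6%), shares near those of all genes.

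**Figure D4:**
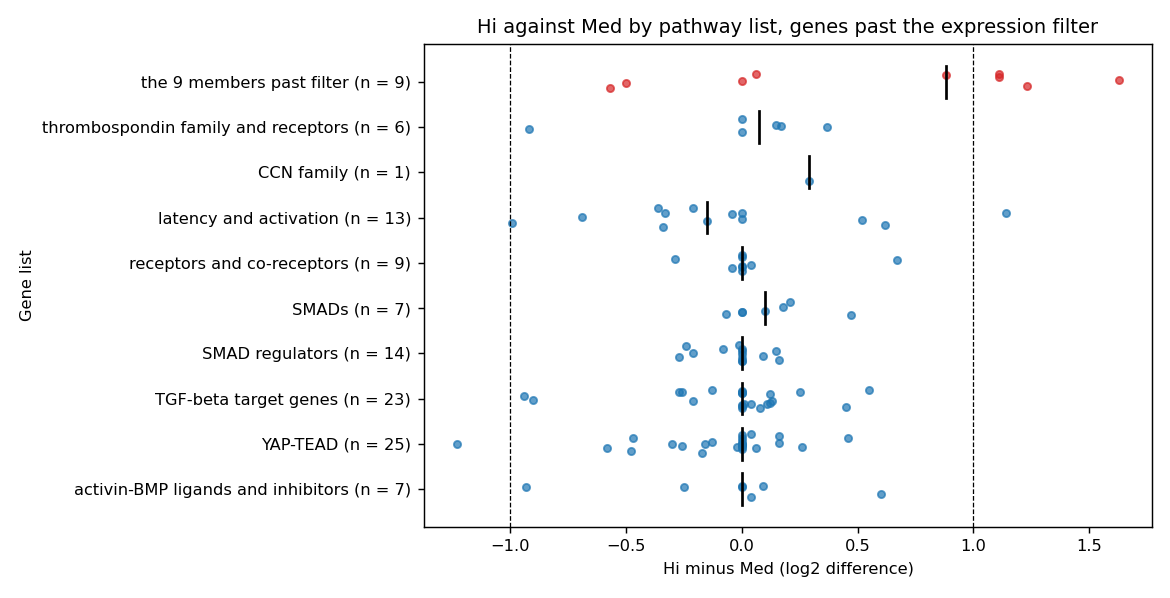
Log2 difference Hi minus Med (horizontal axis) of the 9 members past the filter (red) and of the other pathway genes past the filter by list (blue), 1 point per gene with random vertical spread, black bars at medians and dashed lines at a 2-fold difference. The members' median is 0.88, a value the choice of the genes fixed, and the medians of the other lists with over 1 gene lie between -0.15 and 0.10.

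The genes whose pattern over the 3 columns lay nearest to Thbs1 and Ccn2 were found by the distance between values centred on each gene's mean. Only protein-coding genes past the filter were searched, without those that have provisional names. For Thbs1 these were the squalene epoxidase gene Sqle (7.62, 8.71 and 10.00 in Ctrl, Med and Hi, distance 0.25), Neurl3 (7.47, 8.57 and 10.31, distance 0.25) and Phlda2 (8.05, 9.15 and 10.41, distance 0.26). For Ccn2 they were Megf10 (7.39, 6.68 and 7.69, distance 0.21), Afap1l2 (7.48, 6.66 and 7.56, distance 0.24) and Fbxo2 (7.29, 6.66 and 7.69, distance 0.25). With 3 columns any such likeness rests on 3 values per gene. The deposited values alone were used, including the difference of Med from Ctrl, whose direction for Thbs1 is not settled. The search was not repeated under the other scalings.

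Promoter sequence was read from RefSeq (GRCm38.p6) for the 7 of the 10 genes with an entry. Thbs1, Ccn2 and Tgfb3 had none, so nothing is said here of their promoters. Those of Ccn1, Ltbp2 and Tgfb2 are shown because Hi exceeded Med for these genes, and that of Tgfb1 because it was nearly level. Those of Thbs2, Tgfbr1 and Tgfbr2 are described below without their sequence. Each is the 250 bases before the start of the transcript, 5′ to 3′ on the gene's strand. Capitals mark exact matches, on either strand, to TEAD (GGAATG), AP-1 (TGANTCA), SMAD (CAGACA), SP1 (GGGCGG), the TATA box (TATAAA) or the CArG box.
Ccn1, chr3:145649986-145650235, minus strand: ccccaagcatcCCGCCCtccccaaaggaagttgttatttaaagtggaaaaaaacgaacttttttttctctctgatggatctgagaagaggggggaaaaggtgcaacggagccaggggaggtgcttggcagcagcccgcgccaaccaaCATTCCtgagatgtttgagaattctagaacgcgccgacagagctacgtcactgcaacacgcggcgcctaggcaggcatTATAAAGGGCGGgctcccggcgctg
Tgfb2, chr1:186705990-186706239, minus strand: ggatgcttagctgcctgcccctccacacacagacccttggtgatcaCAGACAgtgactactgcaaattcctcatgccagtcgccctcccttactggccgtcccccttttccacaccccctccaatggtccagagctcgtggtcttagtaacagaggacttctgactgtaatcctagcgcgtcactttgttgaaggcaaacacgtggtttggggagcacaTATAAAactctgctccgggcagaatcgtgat
Ltbp2, chr12:84876492-84876741, minus strand: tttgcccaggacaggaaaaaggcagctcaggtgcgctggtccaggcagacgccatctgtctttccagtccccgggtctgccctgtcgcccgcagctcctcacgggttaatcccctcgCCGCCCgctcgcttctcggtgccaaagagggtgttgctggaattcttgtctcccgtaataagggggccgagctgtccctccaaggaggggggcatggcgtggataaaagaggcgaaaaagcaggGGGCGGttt
Tgfb1, chr7:25686752-25687001, plus strand: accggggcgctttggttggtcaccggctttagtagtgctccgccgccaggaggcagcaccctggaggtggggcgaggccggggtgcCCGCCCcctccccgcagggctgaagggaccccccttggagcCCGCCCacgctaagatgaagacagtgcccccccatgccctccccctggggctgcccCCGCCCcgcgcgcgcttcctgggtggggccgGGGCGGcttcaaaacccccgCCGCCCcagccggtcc

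In the Ccn1 window the TEAD letters ended 98 bases before the start, and the TATA letters, which directly precede a match to SP1, ended 20 bases before it. The Tgfb2 window held TATA letters ending 26 bases before the start and SMAD letters ending 199 bases before it. The Ltbp2 window held 2 matches to SP1 alone, and the Tgfb1 window held 5. Among the windows not shown, that of Thbs2, identical in Hi and Med, held TATA letters on the other strand, ending 121 bases before the start. It also held SMAD letters ending 62 and 39 bases before the start. Tgfbr1, also identical, had a window with SP1 letters and another with SMAD letters, and the Tgfbr2 window held no match. Among the windows read, TATA letters on the gene's own strand were thus in those of Ccn1 and Tgfb2. SMAD letters on either strand were in those of Tgfb2, Thbs2 and Tgfbr1. A link of these letters to the differences was not tested. The base composition differed as well, with a GC content of 53.6% for Tgfb2, 54.8% for Ccn1, 61.6% for Ltbp2 and 75.2% for Tgfb1. It was 46.8% for Thbs2, 58.4% for Tgfbr2, and 74.8% and 52.8% for the windows of Tgfbr1. Of 32851 promoter windows of the same length, 12.6% held the TEAD letters, 12.4% TATA, 17.1% SMAD, 32.7% SP1, 6.75% AP-1 and 1.47% a CArG box. These matches describe the letters alone, and no binding was measured.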

How the data were processed

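RNA (100 ng of total RNA per sample, per the labels' protocols) was amplified from random primers, labelled with biotin and measured on Affymetrix arrays. The authors deposited 1 normalized column per group, on a log2 scale as judged from the range of 2.13 to 14.8, the base being not given in the sources used here. Expression Console of Affymetrix and GCRMA, which corrects background and normalizes, were used in a way not further specified, per the submitters' processing notes.

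Gene names came from GEO's platform annotation, updated by gene number to RefSeq (GRCm38.p6). Of 35556 probe sets, 21789 had 1 gene (21698 matched by number), 1621 several and 12146 none. Probe sets of 1 gene were averaged, and log2 differences between columns were counted at 2-fold. With 1 sample per group no test was run, and the number of arrays limits precision. Alternatives were 4 other column scalings, the highest probe set per gene, 2 other filters and 1.5-fold. Python 3.11.15, pandas 2.3.3, R 4.3.3 and limma 3.58.1 were used. The counting step was run on copies of the Med column with planted differences and no noise, which checks the code alone.

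The members and lists were chosen with earlier results of these data known. Named genes are the 10 members. Per pathway list they are the genes 2-fold apart between Hi and Med, otherwise up to 2 with the largest difference. Also named are the 3 protein-coding genes past the filter nearest to Thbs1 and to Ccn2, and the highest and lowest markers. The other markers past the filter, and Cdx2 and Vil1 below it, were named after their values were seen. Of the listed genes, 6 were not matched and are not analysed here.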

Additional observations from a re-analysis of the deposited data

How the results depend on the processing

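No paired analysis was possible because each group has 1 column, and leaving out a replicate could not be done for the same reason. A value was taken as moved when it shifted by more than the SD over receptor genes of the same comparison. The median difference of the members past the filter between Hi and Med was 0.88, and 0.47 with no filter or with a filter on Med and Hi alone, both of which add Tgfbr1. The median against Ctrl in Hi, 0.72, was 0.18 with columns centred on genes past the filter, a setting chosen after seeing the data. In Med it was 0.50 as deposited, -0.27 with quantile normalization, -0.12 with cyclic loess and -0.10 centred on genes past the filter. The count 2-fold apart from Ctrl in Med was 2, but 4 with columns centred on all probe sets and 5 at 1.5-fold (4 higher, 1 lower). With quantile, cyclic loess and centring on genes past the filter it was 3 in each, split 1 higher and 2 lower, against 2 higher and 0 lower as deposited. The other counts, whatever their split, and the other medians stayed within 1.5 times or within that SD. Of 40 values of single genes between Hi and Med, 0 changed sign and 1 crossed 2-fold (Tgfb2, quantile normalization). Values with the highest probe set per gene could not change, here or against Ctrl, since each member has 1 probe set. Against Ctrl 6 of 40 values, rounded to 2 decimals, did not keep their sign and 4 crossed 2-fold in Hi. The 6 include Thbs2 with columns centred on all probe sets, a value that rounds to 0 and did not turn positive. In Med 8 of 45 changed sign and 11 crossed 2-fold. All genes past the filter 2-fold apart between Hi and Med numbered 154, and 100 with quantile normalization (53 higher, 47 lower). Centring on all probe sets shifted the median difference of all genes from Ctrl by 0.29 in Hi and 0.30 in Med, quantile by -0.10 in both, loess by 0.14 in both, and centring on genes past the filter by -0.54 and -0.60.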
